A study of Mus musculus with 24 samples.

Results

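Depolarized cortical neurons in which Smarcc2 had been knocked out and wild-type Smarcc2 added back (3 libraries, WT addback) were compared with depolarized neurons that had received a non-targeting guide RNA and kept their own Smarcc2 (2 libraries, NT). The 5 libraries were chosen by their labels alone from the 24 of the series. All groups used here were mouse cortical cultures started at embryonic day 16.5 and grown to day 18 in vitro. The neurons were silenced overnight with 1 µM TTX, a sodium channel blocker, and 100 µM D-AP5, an NMDA receptor blocker. Depolarization was by 50 mM KCl, applied for 30 min. Resting cultures of both genotypes (2 WT addback and 2 NT libraries) and knockout cultures with the empty vector in place of Smarcc2 (3 depolarized and 3 resting libraries) gave the context. Knockout cultures with Smarcc2 changed at a single residue, the S586A form after depolarization (2 libraries) and the S586E form at rest (3 libraries), entered the fit and the sums of pseudogene counts. Whether the NT cultures also carried a vector is not given in the sources used here. Total RNA depleted of ribosomal RNA was sequenced, and each culture is bulk material in which fewer cells of a type and less RNA per cell cannot be told apart.

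Smarcc2 encodes a core scaffold subunit of BAF, the mammalian SWI/SNF complexes that use ATP to move nucleosomes and open chromatin at enhancers and promoters. Its close relative Smarcc1 fills the same position, and the balance between them shifts as neural progenitors become neurons. Membrane depolarization opens voltage-gated calcium channels, and the calcium signal switches on early-response genes such as Fos, Npas4 and Egr1, which encode transcription factors, before a later set of effector genes.

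Each of the 5 libraries held 19890849 to 22250230 estimated counts. The labels' protocols count the cortex of each embryo as a replicate but do not tie cultures to embryos, and RNA of Xist (486 to 750 CPM) and of the Y-linked gene Ddx3y (17.2 to 29.0 CPM) was present in every library. The p-values below measure only the spread between libraries of a group. That spread was estimated jointly over all 20 libraries of day 18 in 8 groups, not from these 5 alone. WT addback replicate 3 had the highest share of mitochondrial transcripts, 7.53% against 4.94% to 6.25% in the others. NT replicate 2 had the highest summed level of astrocyte and oligodendrocyte markers. Levels are given as CPM, counts per library scaled to a common total after TMM normalization, and differences as log2 fold changes (WT addback over NT) from edgeR's quasi-likelihood test with its standard error (SE).

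The added gene itself showed the largest difference among the protein-coding genes that passed the test. Smarcc2 (chr10:128459248-128490482, GRCm38, plus strand) had 273.5 and 282.7 CPM in the NT libraries and 895.1, 737.2 and 1089 CPM in the WT addback libraries. Every addback library was far above both controls, and the log2 difference was 1.71 (SE 0.15, adjusted p = 1.36e-05), or 3.26-fold. The empty-vector knockout libraries held 49.1, 47.6 and 59.96 CPM, below both other groups. The addback level was thus above the NT level. At rest it was so too, with 265 and 237 CPM in NT and 816 and 756 CPM in WT addback (log2 difference 1.65, SE 0.16). Per transcript length, Smarcc2 stood at 61.3 and 58.0 TPM in NT and at 286, 205 and 318 TPM in WT addback. Smarcc1 was at 16.8 and 15.5 TPM in NT and at 19.8, 14.9 and 17.2 TPM in WT addback. The Smarcc1 groups overlapped (log2 difference 0.06 in CPM, adjusted p = 0.847).

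The transcript forms that made up the Smarcc2 counts were also different. The form named Smarcc2-202 carries a coding exon that Smarcc2-201 and Smarcc2-203 lack, the 18th of its 29 exons at chr10:128481682-128481774 (GRCm38, plus strand). Its 93 bases are shown because they separate the leading NT form from the leading forms of the addback:
Smarcc2-202 exon: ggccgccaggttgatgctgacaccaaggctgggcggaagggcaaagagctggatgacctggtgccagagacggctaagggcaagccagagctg
Smarcc2-202 held 59.2% and 55.8% of the Smarcc2 counts in NT and 1.83%, 2.31% and 2.69% in WT addback. In CPM it stood at 162 and 158 in NT, at 16.4, 17.0 and 29.3 in WT addback and at 12.6, 15.3 and 28.3 in the empty-vector knockout. In this exon-containing form the addback libraries overlapped the knockout libraries, with replicate 3 just above the highest of them, and both groups lay below NT. Smarcc2-203, which has 3639 coding and only 393 noncoding bases in the annotation, went from 43.8 and 44.3 CPM to 577, 423 and 626 CPM and took 57.4% to 64.4% of the counts. Smarcc2-201, with 3297 coding bases, went from 64.9 and 76.8 CPM to 240, 251 and 365 CPM. These shares are kallisto's assignment of reads among overlapping forms and were not tested. The counts do not separate the edited endogenous gene from the added one.

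**Figure D1:**
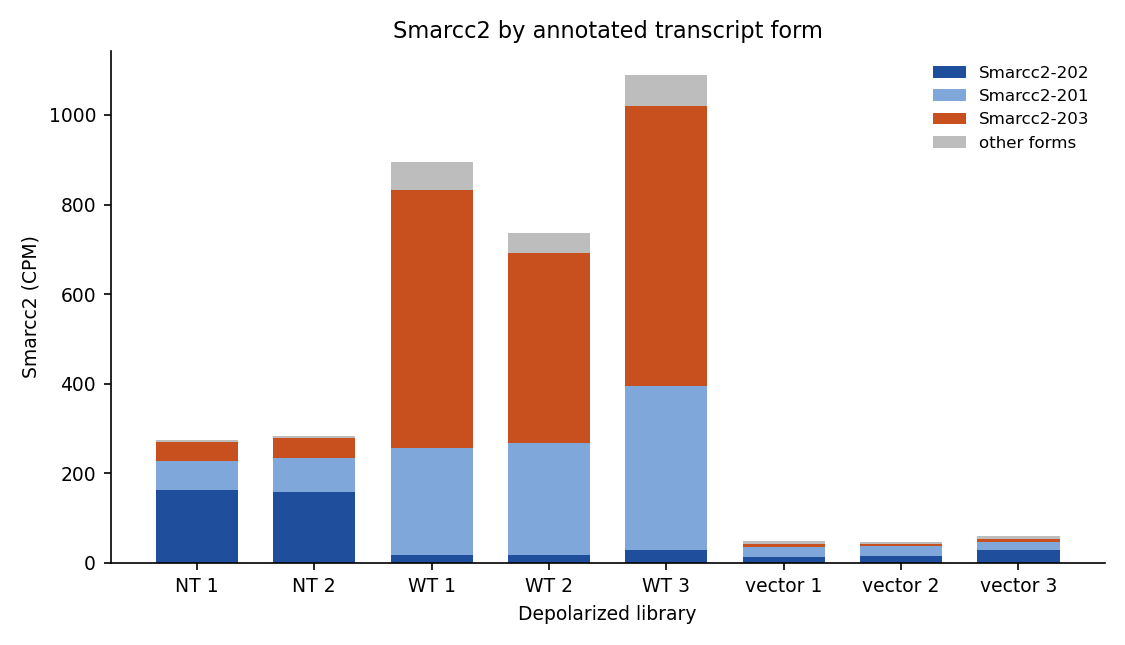
CPM assigned to each annotated Smarcc2 form, stacked, in the depolarized NT, WT addback and empty-vector knockout libraries (1 bar per library). The WT addback bars reach 737.2 to 1089 CPM against 273.5 and 282.7 CPM in NT, and the form with the extra exon is a small part of them.

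Apart from Smarcc2 few genes passed the test between the WT addback and NT neurons. Of 20940 genes tested, 949 (4.53%) were higher and 1351 (6.45%) lower at an unadjusted p under 0.05. At an adjusted p under 0.05, 42 passed (0.201%). The 16 higher in WT addback (0.0764% of genes tested) were 7 protein-coding genes, Smarcc2 among them, and 9 processed pseudogenes. The 26 lower (0.124%) were all protein-coding and moved little, with a median log2 difference of -0.49 and a range of -0.90 to -0.35. The median over all genes was 0.02. All 42 genes had groups that did not overlap, against 13.8% of all genes tested that were higher and 14.3% that were lower without overlap. All 42 kept their direction under the 12 alternative settings. Since their groups did not overlap, leaving out 1 library could hardly have reversed it. Leaving out 1 library reduced the calls to 9 (without NT replicate 1), 1 (without NT replicate 2), 9 (without WT addback replicate 1), 8 (replicate 2) and 4 (replicate 3). Smarcc2 alone passed each of these, and 25 of the 42 passed none. DESeq2 called 336 genes, 29 of the 42 among them. It gave no adjusted p for the 9 pseudogenes, nor for Pidd1, Hist1h1d, Gmppb and Tns1. With only the 5 libraries in the fit, Smarcc2 alone of the 42 passed.

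**Figure D2:**
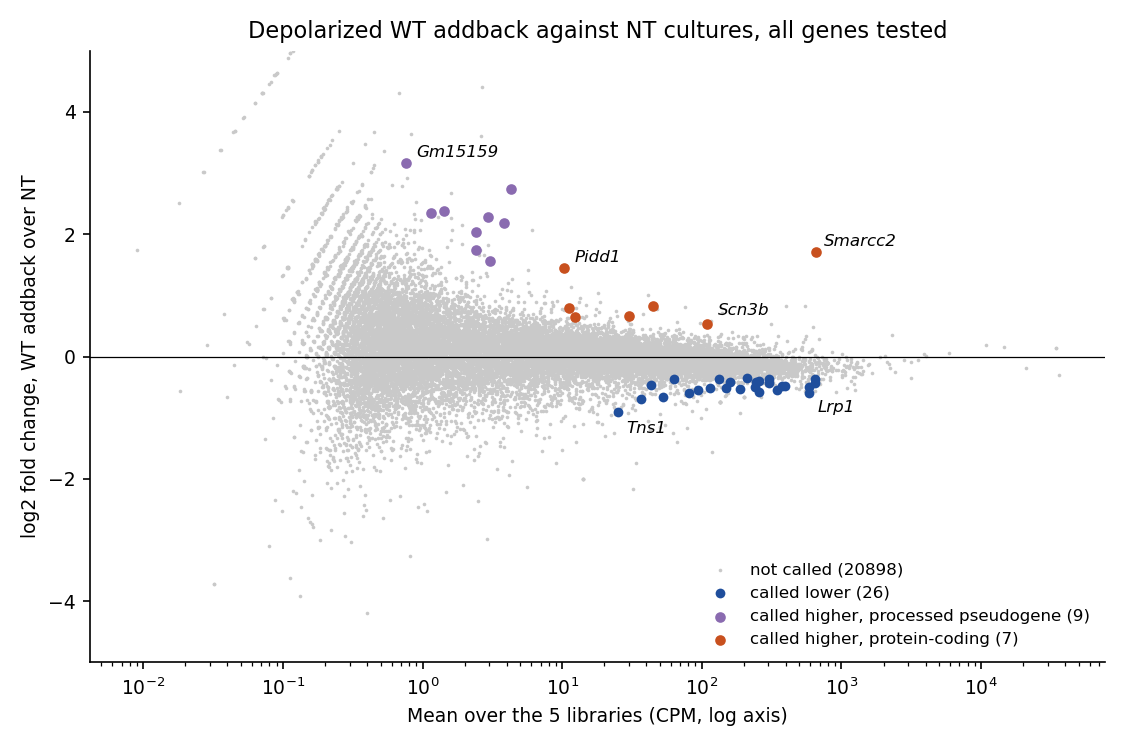
Log2 difference of WT addback over NT after depolarization against mean CPM (log axis) for the 20940 genes tested, 1 point per gene; 67 genes lie outside the vertical range of -5 to 5. The 26 genes called lower lie between -0.90 and -0.35 at high levels, and the 9 pseudogenes called higher lie at low levels.

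The protein-coding genes called higher in WT addback were, beside Smarcc2, Pidd1, Derl3, Hist1h1d, Nwd2, Gmppb and Scn3b. Pidd1 (chr7:141438113-141444025, minus strand), a p53 target whose product is the scaffold of a caspase-activating complex, had 5.07 and 5.02 CPM in NT and 13.2, 12.6 and 15.5 CPM in WT addback. The groups lay well apart (log2 difference 1.45, SE 0.22, adjusted p = 0.0162). Derl3, part of the machinery that removes misfolded proteins from the endoplasmic reticulum (ER), had 35.5 and 25.3 CPM in NT and 58.7, 55.8 and 47.6 CPM in WT addback (0.83, SE 0.16, adjusted p = 0.0386). Gmppb, a subunit of the enzyme that makes GDP-mannose for glycosylation, had 10.1 and 8.32 CPM against 14.8, 13.8 and 14.7 CPM (0.65, SE 0.12, adjusted p = 0.0284). In Derl3 and Gmppb the lowest addback library was above the highest control, which was a condition for naming them. Hist1h1d, a linker histone gene, stood at 7.44 and 8.11 CPM in NT and at 10.6, 15.3 and 14.7 CPM in WT addback (0.80, SE 0.15, adjusted p = 0.0396). Nwd2 had 23.9 and 20.5 CPM in NT and 32.9, 36.4 and 36.2 CPM in WT addback (0.66, SE 0.11, adjusted p = 0.0162). Scn3b (chr9:40269217-40291618, plus strand), an auxiliary subunit of voltage-gated sodium channels, had 92.1 and 79.5 CPM against 138, 112 and 123 CPM (0.54, SE 0.11, adjusted p = 0.0465).

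These genes were also high in the knockout that carried the empty vector. Against the same NT libraries the log2 difference of the depolarized empty-vector knockout was 1.66 for Pidd1, 0.93 for Derl3, 0.82 for Hist1h1d, 0.80 for Nwd2, 0.62 for Gmppb and 0.62 for Scn3b. The WT addback and empty-vector values share the NT controls, so their likeness is given side by side and not tested. Without single libraries the adjusted p ran from 0.0235 to 0.239 for Pidd1, from 0.0307 to 0.504 for Nwd2 and from 0.0508 to 0.762 for Scn3b. For each of these the highest value came without NT replicate 2.

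Among the genes called lower in WT addback, Tns1 (chr1:73910231-74124449, minus strand), a tensin that links integrins to actin, fell the most, from 34.2 and 35.2 CPM in NT to 20.2, 19.6 and 15.9 CPM (log2 difference -0.90, SE 0.16, adjusted p = 0.0314). Bcan, the matrix proteoglycan brevican, had 43.3 and 52.1 CPM in NT and 26.2, 33.6 and 28.6 CPM in WT addback (-0.69, SE 0.14, adjusted p = 0.0465). Lrp1, an endocytic receptor of the LDL receptor family that is abundant in neurons and astrocytes, had 655 and 818 CPM against 460, 520 and 478 CPM (-0.60, SE 0.11, adjusted p = 0.0284). In Bcan and Lrp1 the higher control was NT replicate 2, the library with the highest astrocyte markers. Without that library the differences were -0.56 (adjusted p = 0.762) and -0.43 (adjusted p = 0.708), and Tns1 was at -0.88 (adjusted p = 0.429).

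Among genes of the synapse and of excitability, Tanc1, a postsynaptic scaffold, had 67.5 and 68.5 CPM in NT and 42.8, 42.8 and 43.2 CPM in WT addback (-0.66, SE 0.13, adjusted p = 0.0396). Shank3 (chr15:89499623-89560261, plus strand), the large scaffold below glutamate receptors, had 297 and 283 CPM against 214, 217 and 219 CPM (-0.42, SE 0.08, adjusted p = 0.0314). In both genes the libraries of each group lay close together and the groups far apart relative to that spread. Limk1, a kinase that acts on cofilin and so on actin in spines, had 105 and 126 CPM against 76.4, 82.4 and 78.1 CPM (-0.55, SE 0.10, adjusted p = 0.0386).

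Adcy5 (chr16:35154877-35305738, plus strand), an adenylyl cyclase, had 231 and 232 CPM in NT and 151, 163 and 168 CPM in WT addback (-0.53, SE 0.08, adjusted p = 0.0162). Paqr8, a membrane progestin receptor, had 92.7 and 109 CPM against 66.3, 68.2 and 66.4 CPM (-0.59, SE 0.10, adjusted p = 0.0162). Kndc1, a Ras exchange factor of dendrites, had 152 and 128 CPM against 108, 95.8 and 92.0 CPM (-0.51, SE 0.09, adjusted p = 0.0284). None of these groups overlapped, which was a condition for naming these genes. Further genes called lower, listed after their values were seen, were Tnrc18, Fasn, Nrip3, Srcin1, Adora1, Grk3, Prrc2b, Ttyh3, Nf2, Plec, Nectin1, Setd1b, Syngr1, Slc25a22 and Vps13d, with log2 differences from -0.51 to -0.35.

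Genes called lower differed from all genes tested in base composition, length and level. Their median GC content was 58.5% (range 45.8% to 64.6%) against 49.4% for all genes tested, and their median length 5027 against 2273 bases. Their median level was 224 against 7.05 CPM, and a background of genes at similar levels was not used. With all genes ordered by GC content in 5 equal groups, the median log2 difference ran from 0.16 in the lowest to -0.06 in the highest group, and 19 of the 26 genes lay in the highest. WT addback replicate 3 had the strongest trend, with median deviations of 0.12 in the lowest and -0.08 in the highest GC group. With offsets that remove each library's GC trend, an alternative added after the data were seen, 7 of the 26 passed, among them Adcy5, Kndc1, Nf2, Nrip3, Paqr8 and Tns1, and the median of the 26 was -0.44. With length offsets 7 passed, and with only the 5 libraries in the fit none did. Leaving out 1 library, 4 passed without NT replicate 1, 0 without NT replicate 2, 1 without WT addback replicate 1, 2 without replicate 2 and 2 without replicate 3.

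**Figure D3:**
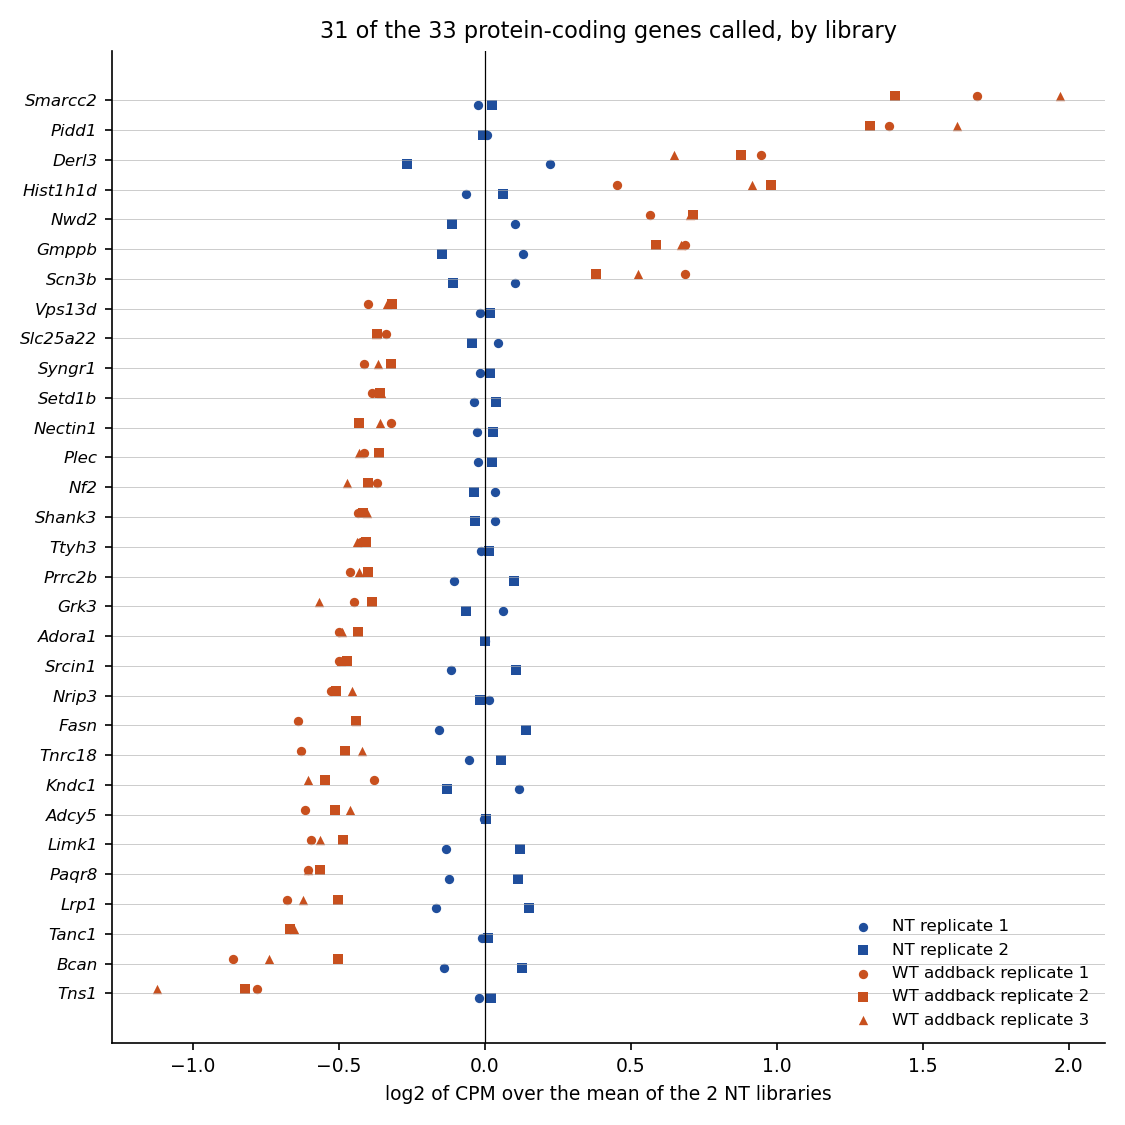
Log2 ratio of each library's CPM to the NT mean for 31 of the 33 protein-coding genes called after depolarization, 1 row per gene and 1 point per library. In every row the 3 WT addback points lie on one side of the 2 NT points.

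Every called gene had the same sign in the resting cultures. The resting and depolarized comparisons share no library, but both take each gene's spread from the same fit. Of the 26 genes called lower, all 26 were below NT at rest (median log2 difference -0.34), 25 with an unadjusted p under 0.05 against 4.56% of all genes, and 3 were called. Of the 7 protein-coding genes called higher, all 7 were above NT at rest (median 0.40), 4 with an unadjusted p under 0.05 against 3.32% of all genes, and 1 was called. In the resting comparison itself 22 genes were called (0.105%), 16 higher (0.0764%) and 6 lower (0.0287%). The depolarized and resting calls had 10 genes in common, all in the same direction, which is 23.8% of the 42 and 45.5% of the 22. Besides 6 pseudogenes these were Smarcc2, Tns1 (-1.10 at rest, adjusted p = 0.0177), Shank3 (-0.52, adjusted p = 0.0152) and Ttyh3 (-0.44, adjusted p = 0.0221). At rest the genes called with the largest differences also included Plxdc1 (-0.78, adjusted p = 0.0281), Ackr1 (-0.54, adjusted p = 0.0352) and the small RNA gene Rprl2 (2.12, adjusted p = 0.0267), whose depolarized differences of -0.54, -0.39 and 1.66 did not pass. Without single resting libraries the resting calls numbered 6 (NT replicate 1), 3 (NT replicate 2), 2 (WT addback replicate 1) and 17 (WT addback replicate 2).

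The change that depolarization made in WT addback was compared with the change it made in NT as a difference of differences. No gene passed in edgeR (0%), with 619 at an unadjusted p under 0.05 (2.96%), and none passed in DESeq2, with 617 at an unadjusted p under 0.05. Among the called genes, Gmppb (unadjusted p = 0.00130), Derl3 (0.0136) and Limk1 (0.0176) had the lowest unadjusted p for this difference. Gmppb was at a log2 difference of 0.65 after depolarization and near 0 at rest. None of these differences of response held after adjustment, so a separate effect of depolarization on these genes was not detected with 2 or 3 libraries per group.

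The early-response genes did not pass the test in the depolarized comparison, and their spread within each group was wide. Fos, which encodes a subunit of the AP-1 transcription factor, had 113 and 38.5 CPM in NT and 197, 106 and 32.7 CPM in WT addback (log2 difference 0.55, adjusted p = 0.737). Npas4, a neuron-specific activity-dependent factor, had 53.3 and 13.1 CPM against 108, 46.8 and 16.8 CPM (0.78, adjusted p = 0.646). Arc, whose product regulates AMPA receptor uptake, had 212 and 102 CPM against 328, 180 and 87.3 CPM (0.34, adjusted p = 0.791). The groups overlapped in each, and at rest Fos was at 7.52 and 7.25 CPM in NT and 5.08 and 4.65 CPM in WT addback, so every depolarized library was above every resting one. Fosb had 135 and 51.9 CPM in NT and 169, 124 and 67.0 CPM in WT addback (0.36). Junb had 150 and 81.6 CPM against 209, 158 and 73.0 CPM (0.34), and Egr1 251 and 156 CPM against 303, 232 and 121 CPM (0.11). Egr4 had 46.0 and 23.2 CPM against 69.0, 46.1 and 26.9 CPM (0.45), and Egr2 6.30 and 4.27 CPM against 5.92, 5.02 and 2.19 CPM (-0.27). These AP-1 and zinc-finger factors all overlapped between the groups, with adjusted p from 0.655 to 0.932. The orphan receptor gene Nr4a1 had 21.8 and 9.61 CPM in NT and 29.0, 16.5 and 10.3 CPM in WT addback (0.24), and Ier2 had 64.9 and 27.5 CPM against 94.6, 51.7 and 25.3 CPM (0.30).

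Most early genes ranked the libraries alike. Of the 20 genes of the early-response list, 19 were higher in NT replicate 1 than in NT replicate 2, by a median factor of 1.72, and 19 were highest among the addback libraries in replicate 1. The median ratio of the highest to the lowest addback library was 2.76. No gene of the 20 had groups without overlap, against 13.8% of all genes that were higher and 14.3% that were lower without overlap. For 10 of the 20 both NT values lay inside the addback range. The list's median log2 difference was 0.25 with 17 of 20 genes above 0, and none had an unadjusted p under 0.05. It was 0.81 without NT replicate 1 and 0.57 without WT addback replicate 3, but -0.08 without NT replicate 2 and -0.06 without WT addback replicate 1. A difference in early induction between WT addback and NT was not detectable against this spread. The late-response list had a median of 0.12 over 10 genes, with 1 gene lower at an unadjusted p under 0.05, against 6.45% of all genes. Its median was 0.04 without NT replicate 1 and 0.07 without WT addback replicate 2.

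**Figure D4:**
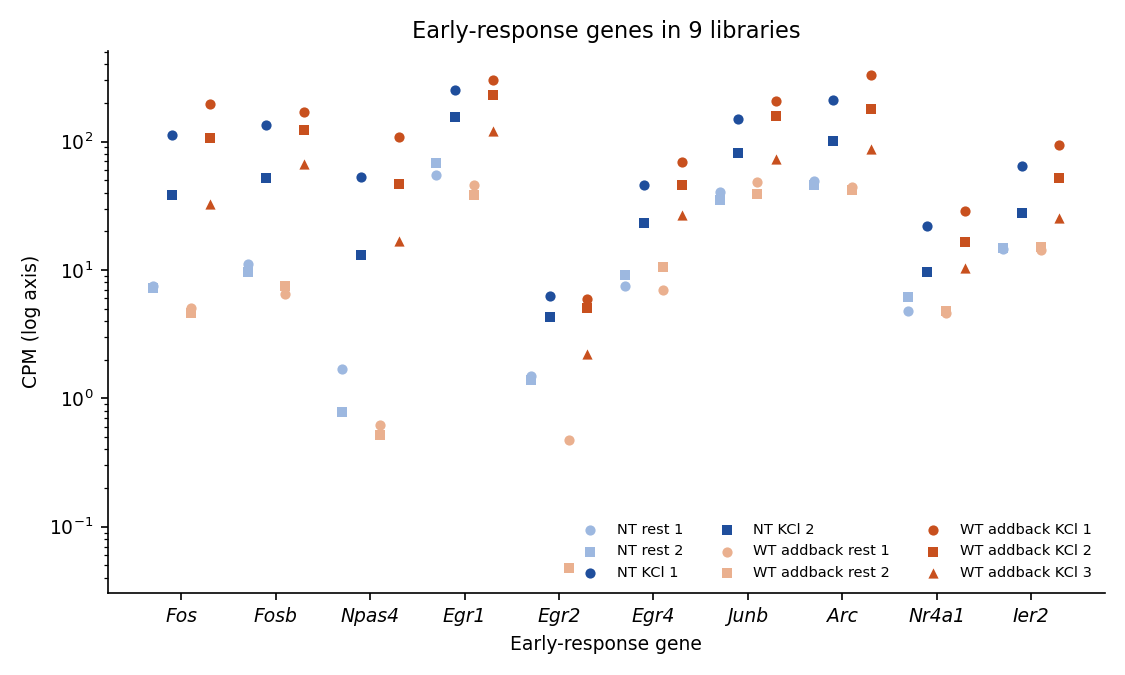
CPM (log axis) of 10 early-response genes in 2 resting and 2 depolarized NT libraries and 2 resting and 3 depolarized WT addback libraries, 1 point per library. Fos runs from 4.65 to 7.52 CPM at rest and from 32.7 to 197 CPM after depolarization, where the NT and addback points overlap.

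Lists of genes for neuronal function mostly had medians slightly below 0. Members named here without having passed were picked after their values were seen. Of 30 voltage-gated channel genes, 27 were below NT (median -0.23), 15 with an unadjusted p under 0.05 against 6.45% of all genes, and Scn3b was called higher. The calcium channel gene Cacna1a had 317 and 335 CPM in NT and 216, 259 and 289 CPM in WT addback (-0.36, adjusted p = 0.251). Of 20 postsynaptic genes 18 were below NT (median -0.20) and 11 had such a p, with Shank3 called. Of 22 synaptic vesicle genes 21 were below NT (median -0.20, 8 with such a p), and of 27 glutamate receptor genes 20 were (median -0.20, 8 with such a p). Grin2b, an NMDA receptor subunit, had 1262 and 1496 CPM against 1041, 1164 and 1059 CPM (-0.34, adjusted p = 0.192). The GABAA receptor list was at -0.03, with 1 of 12 genes higher and none lower at an unadjusted p under 0.05. With GC offsets the medians were -0.21 for voltage-gated channels, -0.19 for vesicle genes, -0.16 for postsynaptic genes and -0.14 for glutamate receptors. The glutamate receptor median was -0.12 with the replicate block, -0.11 with length offsets and -0.10 without NT replicate 2, and the vesicle median was -0.12 without NT replicate 2. Pan-neuronal markers had a median of -0.18 over 12 genes and summed to 5868 and 6342 CPM in NT and to 5462, 5371 and 5306 CPM in WT addback.

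**Figure D5:**
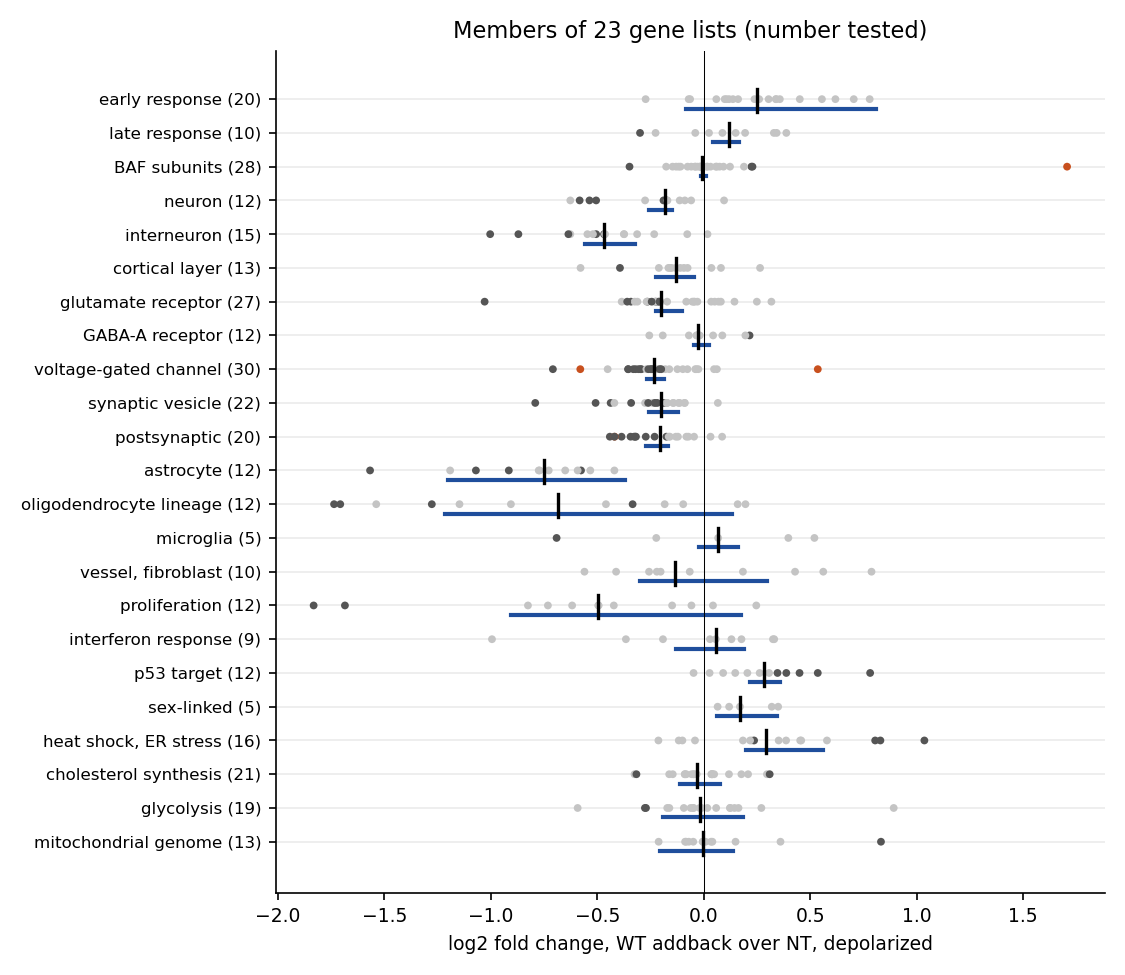
Log2 difference of WT addback over NT for each tested member of the 23 gene lists, with the list's median (black) and the range of medians when each of the 5 libraries is left out (blue). Astrocyte markers have a median of -0.75 with a range of -1.20 to -0.37, and neuronal lists lie near -0.20.

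Glial markers had lower values in WT addback, and none was called. All 12 astrocyte markers were below NT, with a median of -0.75 and 4 at an unadjusted p under 0.05, against 6.45% of all genes. Their summed level was 1709 and 2385 CPM in NT and 1116, 1523 and 1139 CPM in WT addback. Slc1a2, the main astrocytic glutamate transporter, had 1057 and 1234 CPM against 669, 783 and 852 CPM (-0.58, adjusted p = 0.0662). Gfap, an astrocyte filament protein, had 84.7 and 311 CPM against 38.6, 124 and 37.9 CPM, with NT replicate 2 far above the rest. The astrocyte median stayed below 0 without each library (-1.20 to -0.37) and was -0.56 at rest. Oligodendrocyte lineage markers had a median of -0.68 over 12 tested genes of 14 and summed to 142 and 230 CPM in NT and to 118, 156 and 127 CPM in WT addback. Pdgfra, the receptor that marks oligodendrocyte precursors, had 1.42 and 13.5 CPM in NT and 3.16, 3.15 and 0.492 CPM in WT addback. The proliferation list had a median of -0.49 and summed to 40.2 and 59.0 CPM against 42.4, 39.8 and 38.7 CPM, with Mki67 at 10.3 CPM in NT replicate 2 and at most 2.42 CPM elsewhere. At rest the oligodendrocyte and proliferation medians were -1.61 and -1.26. Without NT replicate 2 the depolarized medians were 0.13 and 0.17. The part of glial content in the genes called lower was not tested.

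The remaining cell type lists gave smaller values. Interneuron markers had a median of -0.47, with 14 of 15 below NT and 5 at an unadjusted p under 0.05, against 6.45% of all genes. At rest their median was 0.07. Their summed level was 486 and 527 CPM in NT and 392, 423 and 265 CPM in WT addback, lowest in WT addback replicate 3. Npy, a neuropeptide of interneurons, had 48.9 and 66.8 CPM in NT and 47.4, 56.0 and 15.4 CPM in WT addback. Cortical layer genes had a median of -0.13, and one of -0.04 without NT replicate 2 and -0.07 without WT addback replicate 1. Vessel and fibroblast markers had a median of -0.13, but 0.30 without WT addback replicate 3, 0.25 without NT replicate 1, 0.11 with the replicate block and 0.26 with length offsets. Of 10 microglia markers 5 were tested (median 0.07, and -0.02 without NT replicate 1), and P2ry12, Tmem119, C1qa, C1qb and C1qc had 0 to 7 counts in each library.

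Genes of cell stress leaned the other way. Of 12 p53 target genes 11 were above NT, with a median of 0.28, and 5 had an unadjusted p under 0.05 against 4.53% of all genes, though none was called. Pmaip1, which encodes the death protein Noxa, had 9.002 and 5.71 CPM in NT and 12.9, 10.3 and 14.8 CPM in WT addback (0.78, adjusted p = 0.330), and Bbc3, which encodes the death protein Puma, had 31.5 and 29.8 CPM against 42.1, 43.7 and 39.8 CPM (0.45, adjusted p = 0.123). Both groups of values were apart, and the list was at 0.06 at rest. Of 16 heat shock and ER stress genes 12 were above NT, with a median of 0.29 (0.09 at rest). At an unadjusted p under 0.05 were 4 of them, against 4.53% of all genes. Hspa5, the main ER chaperone, had 315 and 233 CPM in NT and 465, 421 and 574 CPM in WT addback (0.83, adjusted p = 0.167), and Pdia4, an ER disulfide isomerase, had 57.4 and 46.9 CPM against 83.5, 78.0 and 112 CPM (0.80, adjusted p = 0.189). WT addback replicate 3, the library with the largest mitochondrial share, was the highest for both. Leaving out each library kept the p53 median between 0.22 and 0.36 and the heat shock and ER stress median between 0.20 and 0.56. The lean was not particular to WT addback. In the depolarized empty-vector knockout over the same NT libraries these medians were 0.20 and 0.26, given side by side and not tested. The interferon (0.06), cholesterol synthesis (-0.03), glycolysis (-0.02), mitochondrial genome (-0.00) and sex-linked (0.17) lists had no called member. Without single libraries these medians ran from -0.13 to 0.19, -0.11 to 0.08, -0.19 to 0.19, -0.21 to 0.14 and 0.06 to 0.35 in the same order.

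No other BAF subunit was called. Over 28 subunit genes the median was -0.01, with 12 above and 16 below NT. Smarca2, an ATPase subunit, had 167 and 189 CPM in NT and 139, 143 and 136 CPM in WT addback (-0.35, adjusted p = 0.211). Brd9 (0.23) and Dpf2 (0.22), subunits of particular BAF assemblies, were above NT with an unadjusted p under 0.05.

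The genes that the knockout itself had changed were then followed in WT addback. In resting cultures, knockout with empty vector against NT gave 1236 called genes (5.90% of genes tested), 446 higher (2.13%) and 790 lower (3.77%), from libraries that do not enter the depolarized comparison. The 446 genes had a median log2 difference of 0.64 in that knockout and of 0.12 in depolarized WT addback over NT, with 321 (72.0%) above 0 and 95 (21.3%) also at an unadjusted p under 0.05. The 790 genes had a median of -0.67 in the knockout and of -0.18 in WT addback, with 629 (79.6%) below 0 and 244 (30.9%) at an unadjusted p under 0.05. Among all genes 47.4% were below 0 and the median was 0.02. At an unadjusted p under 0.05, 4.53% of all genes were higher and 6.45% lower. Both comparisons come from the same fit, so a gene with a low estimated spread tends to a low p in both. Most of the genes called in the knockout thus had the knockout's sign in WT addback. The knockout medians come from the same resting values that chose these genes. The smaller medians in WT addback therefore do not measure a return toward NT. For the 125 higher and 235 lower genes that had moved at least 1 log2 unit in the knockout, the medians in WT addback were 0.73 and -0.33. Of the 125 higher genes 45 were processed pseudogenes, whose levels are uncertain, against 0 of the 235 lower. Of the 42 genes called in WT addback, 11 were called higher and 20 lower in both, and Smarcc2 was called in opposite directions. Genes not called in the resting knockout included Derl3, Gmppb, Hist1h1d, Scn3b, Adora1, Plec, Prrc2b, Setd1b and Vps13d.

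Set directly against the depolarized empty-vector knockout, depolarized WT addback gave 2 called genes (0.00955%), Smarcc2 and Pgk1. The 26 genes called lower against NT had a median log2 difference of 0.08 in WT addback over empty vector, and of -0.57 in empty vector over NT. Tns1 was at -1.32, Tanc1 at -1.02 and Lrp1 at -0.60 in empty vector over NT, against -0.90, -0.66 and -0.60 in WT addback over NT. These comparisons share libraries with WT addback over NT, so the values are set side by side only.

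The processed pseudogenes made up the rest of the genes called higher, and were chosen for description after their values were seen. Processed pseudogenes are intronless copies of spliced transcripts, and short reads from such a copy and from its parent gene can be hard to tell apart, so their levels are uncertain. Gm5643 (an Hnrnpa1 copy on chromosome X) matched its parent's transcript at 98.7% of 955 aligned bases, with 12 mismatches. The windows below are shown because the reads can be told apart only where copy and parent differ, marked by capitals (GRCm38, both on the plus strand, chrX:142298174-142298233 for the copy and chr15:103242403-103242462, in an exon, for the parent):
Gm5643: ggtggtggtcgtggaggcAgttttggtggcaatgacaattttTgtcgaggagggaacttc
Hnrnpa1: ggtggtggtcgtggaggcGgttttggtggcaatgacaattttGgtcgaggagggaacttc
Gm5643 had 0.663 and 1.28 CPM in NT and 5.49, 5.70 and 8.19 CPM in WT addback (log2 difference 2.74, SE 0.40, adjusted p = 0.0162). Hnrnpa1, an RNA-binding splicing factor, had a mean of 87.8 CPM in NT and 97.9 CPM in WT addback (0.16, adjusted p = 0.586). The copies were chosen because they passed, so their own differences are no evidence. Of the 9 parents 0 were called, but with 0.201% of all genes called most sets of 9 genes would give 0. The parents' log2 differences ran from -0.11 to 0.30. Their mean levels in NT ran from 23.3 (Rpl36a) to 2055 CPM (Eef1a1), so a few CPM moved between copy and parent could go unseen in the higher ones.

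The other copies belong to genes of translation and ribosome assembly. They were Gm12912 (Eef1a1, 1.56), Gm13408 (Rps3a1, 1.74), Gm14138 (Rps6, 2.03), Gm9644 (Rpl3, 2.19), Gm14776 (Npm1, 2.29), Gm12461 (Eef1g, 2.35) and Gm13194 (Rpl36a, 2.38), each with its log2 difference. For Gm15159 (Rpl7) the NT libraries held 2 and 3 counts and the addback libraries 24 to 28, and no fold is given. Identity to the parent ran from 85.0% to 98.7%. Summed over the 9, NT libraries had 6.44 and 7.84 CPM and WT addback libraries 27.5 to 37.3 CPM. At rest all 9 were higher in WT addback (median log2 difference 2.16), and 6 were called. Of 618 processed pseudogenes tested, 446 were above NT (median 0.29). At an unadjusted p under 0.05, 83 were higher, against 4.53% of all genes, and 4 lower, against 6.45%. The 618 include the 9 called and passed a low-count filter over 20 libraries, 16 of them knockout. Pseudogenes low in NT could thus enter through the knockout groups alone. With only the 5 libraries in the fit 0 of the 9 passed, and DESeq2 gave no adjusted p for any of them. Leaving out NT replicate 1 or NT replicate 2, 0 of the 9 passed; 4 passed without WT addback replicate 1, 2 without replicate 2 and 1 without replicate 3.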

How the data were processed

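Per the labels' protocols, RNA of cortical neuron cultures was sequenced as total RNA after ribosomal depletion. The submitters' processing notes name FastQC, cutadapt and kallisto, and their versions, settings, index build and strand setting are not given in the sources used here, so reads of overlapping antisense genes may be mixed. Each deposited table lists 142552 transcripts, each with an estimated count, an effective length and a TPM per the file headers. Transcript identifiers were matched to GENCODE M21 (GRCm38; 99.2% matched, 98.9% with the same version). Unmatched transcripts held at most 0.419% of the estimated counts in the 5 libraries.

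Estimated counts were summed to 55177 genes and rounded. edgeR 4.0.16 (limma 3.58.1, R 4.3.3) was run with TMM, filterByExpr (20940 genes) and the two-sided quasi-likelihood F test over all 20 libraries of day 18 in 8 groups (14510199 to 24024959 counts each; 12 residual degrees of freedom; common biological coefficient of variation 14.6%). Genes with a Benjamini-Hochberg adjusted p under 0.05 were called, with no minimum fold. Given TPM values are the authors' own, summed per gene. The fitting procedure was tested on simulated counts with 200 changed genes. It recovered 56% of the genes changed by 1 log2 unit and 69% of those changed by 2.

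Named genes were Smarcc2, Smarcc1, Clca1, 10 early-response genes, called members of the 23 gene lists, the 10 that were called with the greatest rise and the 10 with the greatest fall (mean of at least 1 CPM, no overlap, no predicted genes or pseudogenes) and the 3 at rest by the same rule. The comparison, lists and rules were chosen with earlier results of these data known. The alternatives tried were DESeq2 1.42.0, scaling by median-of-ratios factors, no low-count filter, a replicate block, length offsets, GC-content offsets (added after seeing the data), only the groups compared, and leaving out each library. Pseudogenes were matched to parent transcripts with BLAST 2.17.0, and sequence letters were read from the GENCODE M21 transcripts. Some called genes are not reported here. Clca1 had 0.142 and 0.480 CPM in NT and 0.216, 0.456 and 0.358 CPM in WT addback (log2 difference 0.16, adjusted p = 0.964).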

Additional observations from a re-analysis of the deposited data

Results flagged for a closer look

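The 9 processed pseudogenes called higher in depolarized WT addback were also summed in the knockout libraries outside the WT addback groups. In these 11 libraries, which carried the empty vector or the S586A or S586E form of Smarcc2, the sum ran from 27.8 to 63.8 CPM. In the 4 NT libraries it ran from 5.46 to 7.84 CPM. Each of the 9 pseudogenes separated the 16 knockout libraries from the 4 NT libraries without overlap. The 5 depolarized WT addback and NT libraries among these had served to choose the 9, so part of this separation was fixed in advance. Pseudogenes low in NT could also pass the low-count filter through the knockout groups alone. The count of 9 is therefore not a result on its own. The share of all genes that separate these libraries was not computed. The cause was not tested.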

How the results depend on the processing

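Of the 42 genes called after depolarization, all 42 kept their direction under the 12 alternatives. Since their groups did not overlap, leaving out 1 library could hardly have reversed it. Smarcc2 passed each of the 12 (log2 difference 1.56 to 2.15). The number called was 44 with median-of-ratios size factors, 704 with no low-count filter, 336 with DESeq2, 13 with length offsets, 16 with GC-content offsets, 5 with only the groups compared and 1 to 9 without single libraries. In fits with 1 NT library left, that library is assumed to vary like the other groups. For the resting comparison the counts, 22 in the reported fit, were 378 with no low-count filter, 130 with DESeq2 and 2 to 17 without single libraries. For the difference in response they were 0, 145 with no low-count filter and 0 to 1 without single libraries (1 without resting NT replicate 2). The resting-knockout genes limited to at least 1 log2 unit had medians of 0.73 and -0.33 in place of 0.12 and -0.18. With the replicate number as a block, 85 genes were called after depolarization (41 of the 42 among them), 65 at rest and 0 for the response. The labels do not say that numbers pair the cultures, and the deviations of same-numbered libraries correlated at 0.111 and 0.120 over only 2 pairs.

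Several genes that were not called changed sign with single libraries left out, and the cause was not tested. Smarcc1 and Egr4 did not. Clca1 ran from -0.48 to 1.23 and was at -0.028 with the replicate block and -0.13 with length offsets. Fos ran from -0.14 to 1.54, Fosb from -0.17 to 1.21, Npas4 from -0.065 to 2.13, Egr1 from -0.20 to 0.49, Egr2 from -0.55 to 0.052, Junb from -0.032 to 0.85, Arc from -0.23 to 0.96, Nr4a1 from -0.23 to 0.95 and Ier2 from -0.27 to 1.06. With no low-count filter Fos (adjusted p = 3.70e-04), Npas4 (1.07e-05) and Egr4 (0.0488) passed. With 2 and 3 libraries per group, differences can be missed at this depth, and not only small ones.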
